A study of Mus musculus with 9 samples.

Results

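The 120 genes described here are the Hox genes and 8 further families of developmental transcription factors, followed in mouse alveolar macrophages with and without Suz12. They were chosen by gene name, with earlier results of these data known. The set holds every counted gene whose mouse symbol is Hoxa, Hoxb, Hoxc or Hoxd with a number (39 genes). It also holds those named Lhx, Pax, Tbx, Sox, Dlx, Irx or Nkx with a number or of the family of Six2 and Six3 (81 genes). In all, 27179 genes were counted. Noncoding neighbours with such names, 15 in all, were left out. RNA with a poly(A) tail was sequenced from alveolar macrophages, the resident phagocytes of the airspaces, sorted from the lungs of C57BL/6 mice aged 1 week. The 4 wild type libraries and the 5 libraries with a conditional knockout of Suz12 are called biological replicates by the submitters. The Cre driver, the deleted exons, the gate of the sort, the sex of the animals and any pooling of them are not stated in the labels.

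HOX proteins are homeodomain factors that give cells their position along the body axis, and their genes sit in 4 clusters in the order in which they act. SIX2 and its relatives and the LHX, PAX, DLX, IRX and NKX proteins also carry homeodomains or paired domains, TBX proteins carry a T-box and SOX proteins an HMG box, and each family directs the formation of particular organs. SUZ12 belongs to the Polycomb complex PRC2, whose enzyme methylates histone H3 on lysine 27 and so marks repressed chromatin. The genes of these families are textbook targets of that mark in cells that do not use them. In mammals the complex is found mainly at promoters rich in CG dinucleotides.

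Promoter windows of the RefSeq table for GRCm38.p6 (250 bases before and 50 after a start site) were found for 79 of the 120 genes. In the window with the most CG dinucleotides of each gene, the median was 20 for the 79 genes and 8 for all 27025 genes with a window, and 78.5% against 45.8% held at least 10. A CG reads the same on both strands. Split by their RNA, the family members had a median of 17 CG in the 13 seen in all 5 knockout libraries, 21 for the 40 seen in some of them and 19.5 for the 26 with no count anywhere. The sequences upstream of Hoxb4 and Hoxa5, the Hox genes with the most counts in clusters B and A, are shown 5′ to 3′ on the gene's strand with each CG in capitals. Neither stretch overlaps an exon of GENCODE vM21, though the first lies within the span of Hoxb3 and the second within that of Hoxa3.
Hoxb4, plus strand, chr11:96318017-96318266, the 250 bases before the start: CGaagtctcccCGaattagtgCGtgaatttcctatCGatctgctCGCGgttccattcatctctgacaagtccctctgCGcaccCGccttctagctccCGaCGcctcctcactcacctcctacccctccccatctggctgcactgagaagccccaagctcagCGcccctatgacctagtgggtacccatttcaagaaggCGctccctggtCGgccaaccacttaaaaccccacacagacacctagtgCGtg
Hoxa5, minus strand, chr6:52204588-52204837, the 250 bases before the start: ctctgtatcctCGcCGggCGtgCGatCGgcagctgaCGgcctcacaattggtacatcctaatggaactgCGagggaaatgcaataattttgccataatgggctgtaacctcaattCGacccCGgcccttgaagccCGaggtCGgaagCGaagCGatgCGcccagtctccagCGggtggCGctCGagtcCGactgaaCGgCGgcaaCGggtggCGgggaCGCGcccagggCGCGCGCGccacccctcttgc
The 300-base windows of these genes held 14 and 29 CG, and as many or more stood in 36.3% and 12.9% of all windows.

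Library totals ran from 13.8 to 25.3 M counts (M, 1e6) in wild type and from 18.6 to 45.6 M in knockout. Suz12, counted over the whole gene, stood at 66.6 ± 10.7 counts per 1e6 (CPM; SD, n = 4) in wild type and 15.996 ± 4.11 CPM (SD, n = 5) in knockout, a log2 difference of -2.06 (adjusted p = 1.69e-05, edgeR quasi-likelihood test). All 16 alveolar macrophage markers examined, Pparg, Siglecf and Marco among them, passed the count filter, with 4 called higher (Marco, Mertk, Lpl and Ptprc), 3 called lower (Car4, Cd68 and Krt79) and none at 0. Over all genes that passed the filter, 8.97% were called higher and 11.0% lower. The libraries also differed in how they held rare transcripts. Of genes with 1 to 30 counts, those with only 1 to 3 made up 14.1 to 16.4% in the wild type libraries and 21.7 to 41.5% in the knockout libraries. Genes averaging 0.5 to 1 CPM in the other libraries of the same group had 0 counts in 28.5 to 51.9% of cases in a wild type library and in 0 to 3.49% in a knockout library. At 2 to 4 CPM the ranges were 1.78 to 8.01% and 0 to 0.389%. The part of this difference in the results that follow was not tested.

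**Figure D1:**
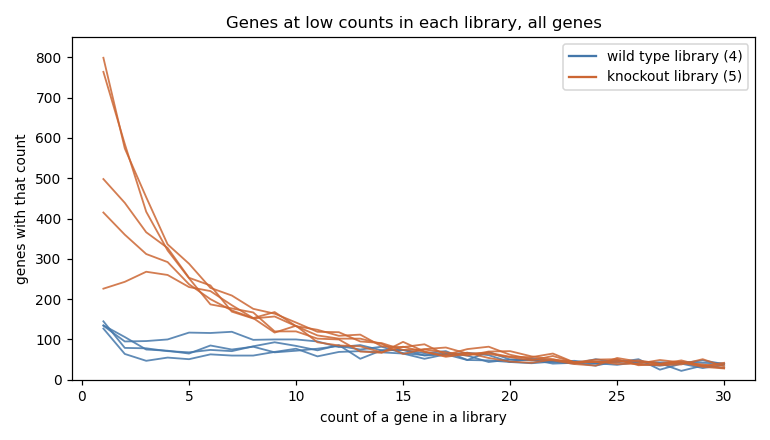
Number of genes (vertical axis) that had each count from 1 to 30 (horizontal axis) in each library, over all counted genes. At a count of 1 the 4 wild type libraries held 127 to 145 genes and the 5 knockout libraries 226 to 799, and the lines come together toward a count of 30.

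Most of the 120 genes were silent or nearly so, and far more of them were detected in knockout than in wild type macrophages. A gene is called detected here when its count is above 0. In the wild type libraries 11, 10, 6 and 9 of the 120 genes were detected, and in the knockout libraries 46, 64, 38, 45 and 41. Drawn down to the 13.8 M counts of the smallest library, the numbers were 10.996, 9.76, 6 and 8.94 in wild type and 38.8, 53.4, 33.5, 42.5 and 36.0 in knockout. The groups did not overlap at equal depth, with means of 8.92 ± 2.13 (SD, n = 4) and 40.9 ± 7.77 (SD, n = 5). All counted genes moved the same way but less, from 47.7 ± 1.46% detected (SD, n = 4) to 56.2 ± 1.45% (SD, n = 5), against 7.44 ± 1.77% and 34.0 ± 6.47% of the family members.

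The count filter of the test, which a gene can pass through its knockout libraries alone, left out 107 of the 120 genes. These 107 were detected at 0.935 to 3.52% per wild type library and 19.3 to 37.8% per knockout library, at equal depth. All 14339 genes below the filter were at 3.62 to 6.17% and 14.0 to 21.2%. So the quiet family members stood under the general share of quiet genes in every wild type library and over it in every knockout library. No p-value is given for these sums over chosen genes.

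**Figure D2:**
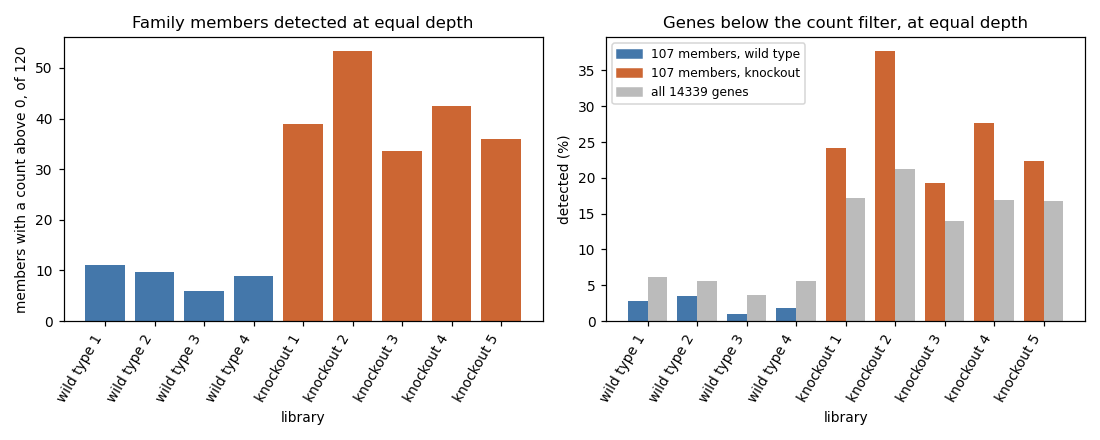
Left, number of the 120 family members with a count above 0 in each library, at the depth of the smallest library. Right, percent of genes below the count filter that were detected at that depth, for the 107 family members (coloured) and for all 14339 genes (grey). The coloured bars lie under the grey ones in the 4 wild type libraries and over them in the 5 knockout libraries.

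Gene by gene, 80 of the 120 were seen in at least 1 knockout library, where 67.2% of all counted genes were, and 18 in at least 1 wild type library, where 54.8% were. Of these, 62 had a count only in knockout, which is 51.7% of the 120 against 13.0% of all counted genes. The bases differ, since most counted genes had a wild type count and so could not show this pattern. Of the 102 members at 0 in every wild type library, 62 were seen in knockout and 40 in no library. Over all counted genes those numbers were 3522 and 8773. Not 1 member was seen only in wild type, a pattern that 0.537% of all counted genes showed. In all 5 knockout libraries and in no wild type library there were 12 members, against 1.62% of all counted genes, among them Six5, Sox13, Sox7, Sox17, Sox30, Irx1, Irx3, Irx5, Tbx3, Hoxa4 and Hoxc4. The bases of these shares differ in the same way. Level matters too, as shown by the genes with a count in all 5 knockout libraries. At a knockout mean of 0.1 to 0.25 CPM, 32.1% of them had 0 counts in every wild type library (4 of 5 members). At 0.25 to 0.5 CPM the share was 18.3% (4 of 6 members), and at 0.5 to 1 CPM it was 7.48% (3 of 7 members). Just 3 members, Sox4, Pax6 and Hoxb4, were present in all 4 wild type libraries (42.4% of all counted genes were), and 24 in all 5 knockout libraries (51.3%). The remaining 40 had no count in any library (32.3%). Single libraries carried much of the tail: 20 members were seen in 1 knockout library only.

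**Figure D3:**
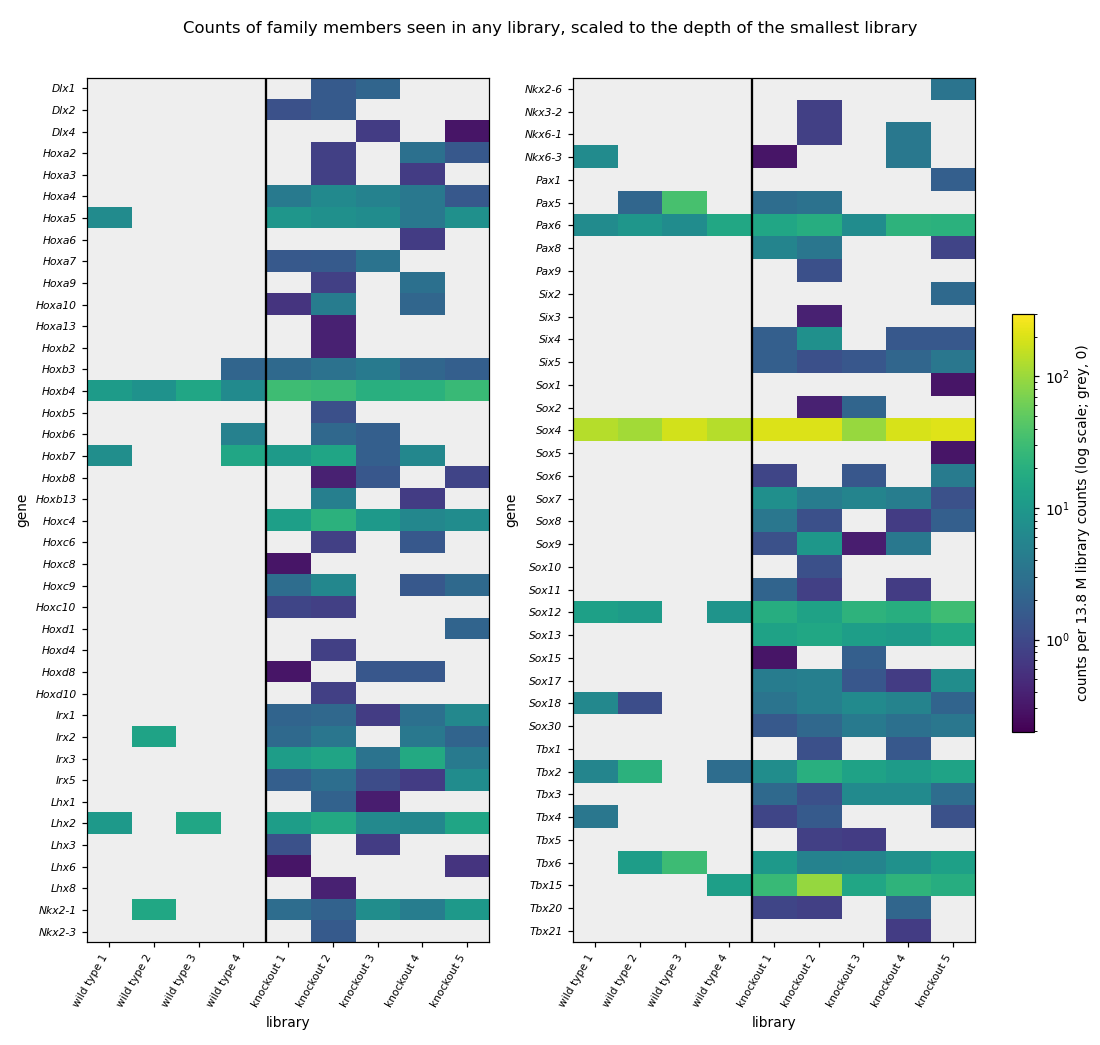
Counts of family members seen in at least 1 library (rows), scaled to the 13.8 M counts of the smallest library, in 4 wild type and 5 knockout libraries (columns, split by the black line). Colour is on a log scale and grey is a count of 0. Most rows are grey on the wild type side. In the whole set 20 members had a count in 1 knockout library, 20 in 2 and 24 in all 5.

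Levels stayed low in both groups. The summed level of all 120 genes was 15.7, 14.7, 22.8 and 15.7 CPM in wild type and 32.3, 44.6, 23.9, 31.5 and 34.5 CPM in knockout. Sox4 alone gave 53.0 to 66.1% of the wild type sums and 29.5 to 43.3% of the knockout sums. Without it the sums were 5.30 to 8.19 CPM and 16.9 to 30.9 CPM, with every knockout library above every wild type library. In the knockout mean 6 members reached 1 CPM, and in the wild type mean only Sox4 did. Because these are bulk libraries, a few cells with much of a transcript and many cells with little of it cannot be told apart.

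The test across all genes, edgeR's quasi-likelihood test with Benjamini-Hochberg adjustment, included 12840 genes, among them 13 of the 120 (10.8%, against 47.2% of all counted genes). Of the 13, 3 rose, Sox13 and Hoxc4 among them, where 8.97% of all tested genes did, and 0 members fell where 11.0% did. At an unadjusted p under 0.05 there were 5 higher, where 16.2% of tested genes were, and 0 lower, where 15.9% were, and 12 of the 13 had a log2 fold change above 0, against 54.0% of tested genes. DESeq2 gave an adjusted p for 39 members, most of them outside the 13, and called 10 higher, where 11.3% of its genes rose, and 0 lower, where 10.8% fell. Every knockout library lay above every wild type library in 5 of the 13, among them Sox13, Hoxc4, Hoxb4 and Tbx15, against 10.9% of tested genes, and 0 lay wholly below, against 9.87%. The median log2 fold change of the 13 was 1.23, against 0.04 for all tested genes. A gene could pass the filter through its knockout libraries alone, as Sox13 and Hoxc4 did, so these shares and this median describe the 13 and say nothing of the other members.

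**Figure D4:**
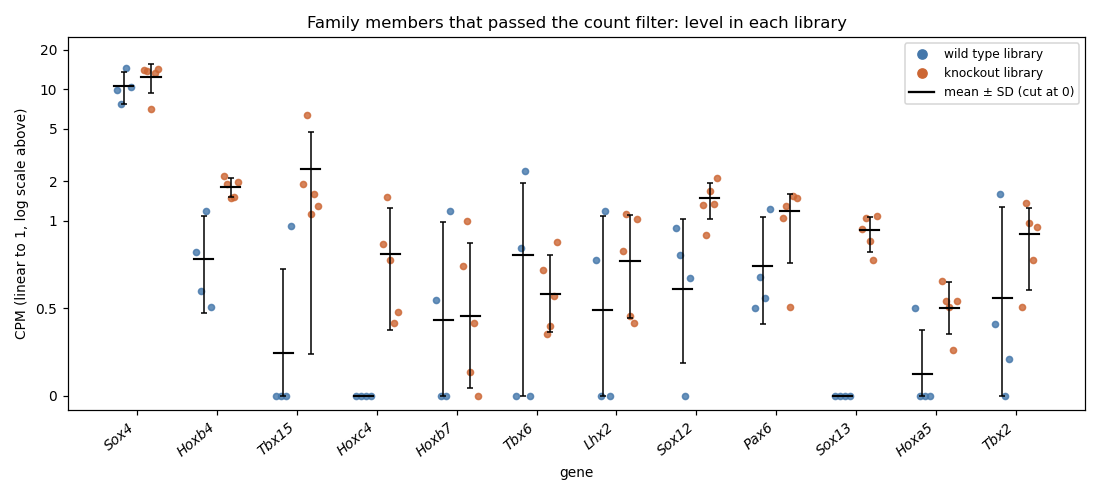
CPM of the family members named here that passed the count filter, ordered by their knockout level per length, in 4 wild type (blue) and 5 knockout (orange) libraries; bars are the mean ± SD. Sox13 and Hoxc4 are at 0 in all 4 wild type libraries, and Sox4 is the most abundant in both groups.

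Six2, Six3, Six4 and Six5 were at the edge of detection in knockout and had no count in wild type. Six4, a factor of muscle and sensory development, had 6, 20, 0, 2 and 5 counts in knockout, and Six5, a relative at the myotonic dystrophy locus, had 6, 3, 4, 3 and 12. Six2, a kidney progenitor factor, had 8 counts in knockout library 5 alone, Six3, a forebrain and eye factor, had 1 in library 2, and Six6 none. The annotated span of Six4 overlaps that of Mnat1, and whether counting used strand is not stated, so their reads cannot be told apart.

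SOX genes held both the most abundant member and one of those called. Sox4, an HMG-box factor of many progenitor and tumour cells, stood at 9.95, 7.77, 14.6 and 10.3 CPM in wild type and 14.0, 13.7, 7.05, 13.3 and 14.4 CPM in knockout. Its groups overlapped, and the difference of 0.23 on the log2 scale (SE 0.24) was not called (edgeR, adjusted p = 0.550). Per length it stood first of all 120 genes in both groups, at 3.60 and 4.21 CPM per kb. Sox13, known from gamma delta T cells, had 0 counts in every wild type library and 45, 39, 33, 15 and 52 in knockout. The knockout level was even, 0.95, 1.05, 0.88, 0.78 and 1.09 CPM, and at least 26.3-fold over a floor of 3 counts in all wild type libraries together (0.036 CPM), a bound for counting error only (adjusted p = 0.00271, edgeR). Of 762 genes with a count in every knockout library and a mean of 0.5 to 1 CPM there, 7.48% had 0 counts in every wild type library. Sox12, a relative of Sox4, stood at 0.96, 0.80, 0 and 0.67 CPM in wild type and 1.31, 0.92, 1.68, 1.35 and 2.13 CPM in knockout (log2 fold change 1.24, SE 0.79, adjusted p = 0.307, edgeR).

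Among the SOX genes below the filter, Sox7, Sox17 and Sox18 are the SOXF factors of blood vessel endothelium. Sox7 had 0 counts in wild type and 25, 11, 15, 6 and 4 in knockout, and Sox17 0 and 14, 12, 4, 1 and 24. Sox18 had 10, 2, 0 and 0 counts in wild type and 11, 12, 18, 7 and 7 in knockout. Fitted without a filter, where 7.12% of genes rose and 6.94% fell, 8 of the 80 members with a count were higher and 0 lower. In that fit the adjusted p of edgeR was 0.0301 for Sox7, 0.0433 for Sox17 and 0.566 for Sox18. Sox30, a factor of sperm formation, had 0 in wild type and 5, 6, 11, 4 and 12 in knockout (adjusted p = 0.0511 in that fit). Sox9, a factor of cartilage and of the lung's distal epithelium, had 4, 24, 1, 5 and 0 counts in knockout and none in wild type. Sox2, the factor of stem cells and airway epithelium, had 1 and 6 counts in knockout libraries 2 and 3, and Sox3, Sox14 and Sox21 had none anywhere. The rest were seen only in knockout: Sox8 with 22 counts, Sox6 with 21, Sox11 with 10, Sox15 with 6, Sox10, the neural crest factor, with 3, and Sox1 and Sox5 with 1 each.

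Markers of endothelium were measured beside the SOXF genes. Of 15 such markers 8 were tested, 1 (Esam) rose and none fell, where 8.97% and 11.0% of all tested genes did. The summed level of the markers was 245 to 321 CPM in wild type and 147 to 288 CPM in knockout, nearly all of it Vwf and Flt1. The defining marker Cdh5 averaged 0.424 and 0.797 CPM, Pecam1 averaged 1.46 and 3.68 CPM (adjusted p = 0.0761, edgeR), and Tek, Tie1, Emcn, Ednrb and Gpihbp1 were at 0 in every wild type library but seen in knockout. Their part in the SOXF counts was not tested.

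The fourth-position genes of clusters A, B and C gave most of the Hox level in knockout. Of 39 Hox genes, 5 had a count in wild type, 27 in knockout and 12 in no library. Wild type libraries detected 3, 1, 1 and 4 of them, and knockout libraries 12, 23, 10, 16 and 9. At equal depth the ranges were 1 to 3.96 and 8.08 to 18.2, which did not overlap. All Hox genes together gave 124 counts in wild type and 953 in knockout, of which Hoxb4 made up 48.4% and 37.1%. Of the summed knockout level per length, genes numbered 4 gave 52.0%, those numbered 7 gave 16.2% and those numbered 5 gave 11.0%, while numbers 11 and 12 gave no count in any library.

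**Figure D5:**
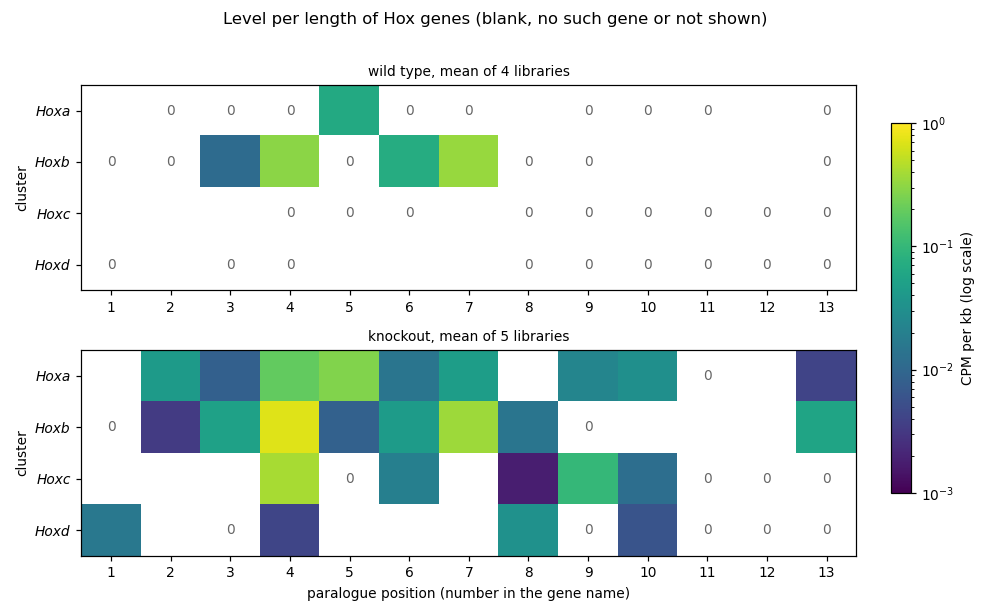
Mean level of Hox genes in CPM per kb (colour, log scale) by cluster (rows) and position in the cluster (columns), in wild type (top, 4 libraries) and knockout (bottom, 5 libraries). A 0 marks a gene with no count and blank fields are positions that hold no gene or are not shown; wild type counts are limited to Hoxa5 and to Hoxb3, Hoxb4, Hoxb6 and Hoxb7.

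Hoxb4, known for its role in blood stem cells, was the most abundant Hox gene and the only one present in all 9 libraries. It had 18, 15, 15 and 12 counts in wild type and 103, 71, 56, 29 and 95 in knockout, that is 0.82, 0.60, 1.19 and 0.50 CPM against 2.18, 1.91, 1.495, 1.502 and 1.99 CPM. Every knockout library was above every wild type library, yet the log2 fold change of 1.23 (SE 0.55) did not pass (adjusted p = 0.139, edgeR), while DESeq2 gave an adjusted p of 0.0158. Its span overlaps that of Hoxb3, which had 0, 0, 0 and 4 counts in wild type and 8, 8, 11, 3 and 6 in knockout. No difference was resolved for Hoxb7, which stood at 0.55, 0, 0 and 1.18 CPM in wild type and 0.74, 0.997, 0.13, 0.41 and 0 CPM in knockout (log2 fold change 0.05, SE 1.30, adjusted p = 0.985, edgeR). Hoxb6 had 9 counts in wild type library 4 and 6 and 5 in knockout libraries 2 and 3. The other genes of the cluster were seen only in knockout, with 13 counts of Hoxb13, 8 of Hoxb8, 3 of Hoxb5 and 1 of Hoxb2, while Hoxb1 and Hoxb9 had none.

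Hoxc4, a fourth-position gene also active in lymphocytes, was the only Hox gene called by the edgeR test with its filter. It had 0 counts in every wild type library and 41, 56, 29, 8 and 23 in knockout, or 0.87, 1.51, 0.77, 0.41 and 0.48 CPM. The mean of 0.809 ± 0.435 CPM (SD, n = 5) was at least 22.4-fold over the floor, a bound for counting error only (adjusted p = 0.00566, edgeR). In its class of knockout level, 7.48% of genes were at 0 in every wild type library. Cluster C had no wild type count at all. Hoxc9 had 9, 15, 0, 2 and 8 counts in knockout, Hoxc10 5 in all, Hoxc6 4 and Hoxc8 1.

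In cluster A, Hoxa4 and Hoxa5 were seen in every knockout library. Hoxa4 had 13, 16, 14, 5 and 5 counts there and 0 in wild type (adjusted p = 0.0337 in the fit without a filter). Hoxa5, which acts in the lung's mesenchyme during development, had 11, 0, 0 and 0 counts in wild type and 31, 20, 19, 5 and 26 in knockout. Its log2 fold change was 1.92 (SE 1.21, adjusted p = 0.305, edgeR), and without wild type library 1, the source of all its wild type counts, the adjusted p was 0.0162. Leaving out that library sets wild type to 0, so the lower value is no support for a rise. The spans of Hoxa4 and Hoxa5 overlap that of Hoxa3, which had 3 counts in all, and the antisense Hoxaas3 had none. Further along, Hoxa7 had 18 counts, Hoxa10 had 16, Hoxa2 had 11 and Hoxa9, a factor of myeloid progenitors, had 6, all in knockout. Hoxa6 and Hoxa13 had 1 count each, also in knockout, and Hoxa11 had none. Cluster D gave the least, 18 counts in all, from Hoxd1, Hoxd4, Hoxd8 and Hoxd10.

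Markers of blood progenitors, in which HOX genes of clusters A and B are known to be active, were measured as well. Of 12 such markers 6 were tested, 1 (Cd34, from 0.509 to 4.22 CPM) rose and none fell. Among all tested genes 8.97% rose and 11.0% fell. The sum of the markers was 467 to 519 CPM in wild type and 492 to 624 CPM in knockout. Prtn3 had no count in any library. Their part in the Hox counts was not tested.

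T-box genes held one strong but uneven member. Tbx15, a factor of skin, fat and skeletal development, stood at 0, 0, 0 and 0.97 CPM in wild type and at 1.90, 6.44, 1.12, 1.61 and 1.30 CPM in knockout. The groups did not overlap, and library 2 stood apart in knockout. The log2 fold change of 3.26 (SE 1.16) did not pass (adjusted p = 0.0646, edgeR). Without wild type library 4, the only wild type library with counts, the adjusted p was 0.00412. That choice sets wild type to 0 and so is no support for a rise. Tbx15 passed with limma voom (adjusted p = 0.0368) and in edgeR with library size only (0.0494) or thinned libraries (0.0219). It did not pass under any other setting tried, such as DESeq2 (adjusted p = 0.117) or edgeR without knockout library 2 (0.209). Tbx2, a repressor active in lung mesenchyme, stood at 0.41, 1.60, 0 and 0.21 CPM in wild type and 0.51, 1.37, 0.99, 0.78 and 0.96 CPM in knockout (adjusted p = 0.651). Tbx6, a factor of somite formation, stood at 0, 0.84, 2.38 and 0 CPM and at 0.72, 0.35, 0.40, 0.57 and 0.88 CPM (adjusted p = 0.842). Both ranges overlapped. Tbx3, a close relative of Tbx2, had 0 counts in wild type and 8, 3, 18, 9 and 9 in knockout (adjusted p = 0.0399 in the fit without a filter). Tbx4 and Tbx5, which direct lung and limb mesenchyme, had 17 and 4 counts in all. Tbx21, the factor of type 1 T cells and natural killer cells, had 1 count in 1 knockout library. Tbx20, a heart factor, had 8 counts and Tbx1, a factor of the pharyngeal arches, had 5, all in knockout, and Tbx10, Tbx18, Tbx19 and Tbx22 had none.

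Markers of mesenchyme were set beside these. Of 14 such markers 8 were tested, 1 (Npnt) rose and none fell, where 8.97% and 11.0% of all tested genes did. The sum of the markers, mostly Fn1, was 1666 to 2585 CPM in wild type and 1728 to 3704 CPM in knockout. Col1a2 averaged 0.278 and 1.41 CPM, Pdgfra 0.210 and 1.11 CPM, and Lum, Npnt and Inmt were at 0 in wild type and seen in knockout. Neither Col1a2 nor Pdgfra passed the test (adjusted p = 0.109 and 0.190, edgeR). Their part in the T-box counts was not tested.

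The 6 Iroquois genes, which pattern the heart, the nervous system and other tissues, had 4 members seen in knockout and a pair with no count anywhere. Irx3 had 0 counts in wild type and 39, 36, 9, 23 and 13 in knockout, a mean of 0.699 ± 0.426 CPM (SD, n = 5). Irx3 was thus at least 19.4-fold over the floor, a bound for counting error only. It missed the filter with all libraries and was called in the fit without one (adjusted p = 0.00921, edgeR) and by DESeq2 (adjusted p = 8.6e-05). Irx5, on chromosome 8 like Irx3, had 0 counts in wild type and 6, 7, 3, 1 and 23 in knockout, and Irx1, on chromosome 13, had 0 and 7, 6, 2, 4 and 20. Neither was called in that fit (adjusted p = 0.0642 and 0.0576). Irx2 had 25 counts in wild type library 2 alone and 8, 9, 0, 5 and 7 in knockout. Irx4 and Irx6 had no count in any library.

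Among the remaining families no member was called in either direction by any of the settings tried. Pax6, the eye and pancreas factor, was present throughout, at 0.50, 0.68, 0.56 and 1.22 CPM in wild type and 1.06, 1.29, 0.51, 1.55 and 1.48 CPM in knockout (log2 fold change 0.66, SE 0.66, adjusted p = 0.538, edgeR). The groups overlapped, and its span overlaps Elp4 and Pax6os1. Lhx2, a LIM-homeodomain factor of forebrain and hair follicle, stood at 0.78, 0, 1.19 and 0 CPM and at 0.82, 1.13, 0.45, 0.41 and 1.02 CPM (adjusted p = 0.708). Pax5, the commitment factor of B cells, had the highest family level per length over the 9 libraries among PAX genes, but 36 of its 40 wild type counts were in library 3. B cell markers were at 13.5 to 33.9 CPM in sum in wild type and 8.95 to 27.6 CPM in knockout. From the 10 markers 7 were tested and 0 were called (0 in each direction), where 8.97% of all tested genes rose and 11.0% fell.

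Nkx2-1, the factor that defines lung epithelium, had 0, 28, 0 and 0 counts in wild type and 9, 5, 20, 6 and 35 in knockout. Alveolar epithelial markers, 16 in all with 12 tested, summed to 400 to 499 CPM in wild type and 355 to 559 CPM in knockout. None of them rose and 1 (Hopx) fell, where 8.97% and 11.0% of all tested genes did. Sftpc averaged 7.01 and 4.74 CPM. Epcam averaged 10.2 and 28.7 CPM and Ager 1.30 and 3.07 CPM, neither called (adjusted p = 0.228 and 0.157, edgeR), and Slc34a2 was at 0 in every wild type library and seen in all 5 knockout libraries. Their part in the Nkx2-1 counts was not tested. The other NKX genes gave at most 17 counts each (Nkx6-3, 11 of them in wild type library 1), and 8 of 14 gave none. Among PAX genes seen only in knockout, Pax8, a thyroid and kidney factor, had 30 counts, Pax1 had 6 and Pax9 had 3, and Pax2, Pax3, Pax4 and Pax7 none. Of the LHX genes besides Lhx2, Lhx1 and Lhx3 had 6 counts each, Lhx6 had 3 and Lhx8 had 1 in knockout, and Lhx4, Lhx5 and Lhx9 none. Of the DLX genes, which shape jaws and forebrain, Dlx1, Dlx2 and Dlx4 had 10, 8 and 3 counts in knockout, and Dlx3, Dlx5 and Dlx6 none.

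Genes for partner proteins of these factors were measured from lists of names. Of 11 TALE cofactors of HOX proteins (MEIS, PBX, PKNOX and TGIF) 8 were tested, 1 rose and none fell, with a median log2 fold change of 0.38. The riser, the repressor Tgif1, went from 39.0 ± 4.22 to 64.2 ± 6.40 CPM (SD, n = 4 and n = 5; log2 fold change 0.72). Of the EYA and DACH partners of SIX2 and its relatives only Eya3 passed the filter, at 48.6 ± 2.95 and 53.5 ± 4.76 CPM (SD, n = 4 and n = 5), and it was not called (adjusted p = 0.370).

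Of 12 LIM-domain partners (LDB, LMO, ISL, SSBP and RLIM) 7 were tested and 4 rose, with a median of 0.42. Ssbp2 went from 0.636 ± 0.348 to 3.07 ± 0.857 CPM (SD, n = 4 and n = 5; log2 fold change 2.27), Rlim, a ubiquitin ligase for LIM cofactors, rose by 0.45 and Ssbp4 by 0.42 on the log2 scale. The 8 TLE and HES corepressor genes counted were all tested, and Tle3 rose (log2 fold change 0.59) and none fell, with a median of -0.11. Of 109 other homeobox and developmental factors 8 were tested and 1, the zinc finger gene Zfp503, rose (0.96, adjusted p = 0.00598, edgeR), while 48 had no count in any library. The shares of all tested genes that rose or fell are those given above for the 13 family members.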

How the data were processed

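Whole-number counts for each Entrez gene, with gene lengths, were deposited by the authors for 9 libraries; they name featureCounts and mm10, per the submitters' processing notes. Aligner, versions, annotation and strandedness: not given in the sources used here. All 9 single-library tables equalled the joint table. Symbols and coordinates came from RefSeq GRCm38.p6, which named 25275 of 27179 identifiers, and promoter sequences from the same release. The members and lists were chosen with earlier results of these data known.

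Counts were tested in R 4.3.3 with edgeR 4.0.16 (TMM scaling, filterByExpr, robust quasi-likelihood fit, threshold 0.05 after adjustment over all tested genes), knockout against wild type, without covariates. The fit was tested on simulated data with known changes. CPM values use the TMM-scaled totals. Standard errors come from the test statistic. Detection at equal depth is the exact expectation of drawing 13.8 M counts without replacement. Floors of 3 counts cover counting error only, since no molecular identifiers are given. Genes named in full are those that passed the filter or had a count in every library of a group, each family's highest per length, Hox genes seen in any library by cluster and position, and called partners (at most 3 a direction). A few silent or rare members are named by count, and a few genes are not reported here, though sums and counts include them. Alternatives used limma 3.58.1 and DESeq2 1.42.0.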

Additional observations from a re-analysis of the deposited data

Results flagged for a closer look

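In groups of 4 or 5 libraries, 5 of 30 sets of values held a library farther from the rest than Dixon's 95% limit allows. For normally distributed values chance gives about 1 in 20. A gene seen in 1 wild type library alone always exceeds the limit, as Tbx15 and Hoxa5 did. The 5 of 30 therefore cannot be read as an excess over chance. Tbx15 was at 0.968 CPM in wild type library 4 and at 0 in the other 3, and at 6.44 CPM in knockout library 2 against 1.12 to 1.90 CPM in the other 4. Hoxa5 was at 0.502 CPM in wild type library 1 and at 0 in the other 3. The summed level of all 120 genes was highest in wild type library 3, at 22.8 CPM. Sox4 was lowest in knockout library 3, at 7.05 CPM. In wild type, 8 of the 18 members seen were seen in 1 library only.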

How the results depend on the processing

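Sox13 and Hoxc4 were called under every alternative in which they were tested except the replicate block (adjusted p = 0.0627 and 0.0675); the stricter filter and the thinned libraries did not include them. The number of members higher was 10 with DESeq2, 8 without a filter, 1 with the stricter filter (1 CPM in 4 libraries), 1 with the replicate block and 3 to 5 with each library left out, and 0 members were lower under any of these. Over all genes 1152 were higher and 1409 lower; DESeq2 gave 1753 higher and scaling by library size only 1960 higher and 1013 lower. With each library left out 772 to 1434 were higher and 1074 to 1521 lower. A robust length correction gave 966 and 1084, and one by least squares, added after seeing the data, 472 and 3118. With the replicate block, which tests a pairing the labels do not state, 741 were higher. Same-numbered libraries correlated at -0.06 to 0.11 in their deviations from the group means, and 1 of 4 wild type libraries correlated best with its own number. The members detected in knockout averaged 30.3 at 5 M counts and 25.5 at a limit of 3 counts; with each library left out the mean was 37.7 to 42.7, and 8.23 to 9.90 in wild type. Without Sox4 the summed level was 6.53 (wild type) and 20.8 CPM (knockout); with each library left out, and Sox4 kept, it was 15.3 to 18.1 and 30.5 to 35.7 CPM. Suz12 was at -2.19 to -1.97 with each library left out. Some uncalled genes changed direction: Hoxb7 without wild type library 2 (-0.37) or 3 (-0.31) or knockout library 1 (-0.20) or 2 (-0.46; leaving out single libraries spanned up to 1.24), Sox4 with the least-squares length correction (-0.051), and Tbx6 with voom (1.96), the replicate block (1.01) or without wild type library 3 (1.03; leaving out single libraries spanned down to -0.84). The cause was not tested. At these depths 1 read is worth 0.0209 to 0.0795 CPM, so levels of most members rest on a few reads.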
